A study of Mus musculus with 3 samples.

Results

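A set of 10 genes that mark monocytes and macrophages was examined across the 3 arrays of a mouse retina study: Ly6c2, Ms4a4c, Ms4a6b, Ms4a6c, Ms4a6d, Ms4a7, Mpeg1, Cd68, Cd53 and Lyz2. They were taken as the probe sets annotated to exactly 1 of these symbols, and each of the 10 genes had 1 such probe set, of 22180 genes measured in all. The genes were chosen by their differences between these same arrays in log2 expression, so the values below describe them and no test stands behind any of them. Retinae were taken 2 days after Cav1-shRNA, and 2 hr after cavtratin or AP, the control. The hairpin RNA carries the name of caveolin-1, the main protein of caveolae, cavtratin is a cell-permeable peptide carrying the scaffolding domain of caveolin-1, and the labels do not spell out AP. All mice were C57, every agent went into the vitreous, and 5 to 6 retinae were pooled for an array. There was 1 array per group and no uninjected retina, and a comparison of Cav1-shRNA with either other group joins the agent to a later time, so agent and time cannot be told apart there. The retina was measured in bulk, so more cells of a type and more RNA per cell cannot be told apart.

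Monocytes are made in bone marrow, circulate in blood and can enter injured tissue, where they become macrophages, while the healthy retina holds its own resident macrophages, the microglia. Ly6c2 encodes a lipid-anchored surface protein that is abundant on the classical, inflammatory monocytes of the mouse and is lost as these cells turn into macrophages. The Ms4a genes encode small proteins that pass the membrane several times, and most members are read in particular kinds of leukocyte. Ms4a7 is known in mouse brain as a marker of macrophages that are not parenchymal microglia. Mpeg1 encodes perforin-2, a pore-forming protein that macrophages turn on engulfed bacteria, Cd68 a glycoprotein of lysosomes and late endosomes, Lyz2 the lysozyme of myeloid cells, and Cd53 a tetraspanin found across leukocytes.

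Promoter windows from RefSeq on build GRCm38.p6, each running from 250 bases before to 50 after a transcript start, matched 9 of the 10 genes by symbol and gene identifier, in 11 windows. Ms4a6d had no window. The windows of Ms4a6b and Ms4a6c are shown because these genes had nearly the same pattern across the arrays, and the capitals mark the longest run of letters that both windows hold.
Ms4a6b, chr19:11518309-11518608, plus strand: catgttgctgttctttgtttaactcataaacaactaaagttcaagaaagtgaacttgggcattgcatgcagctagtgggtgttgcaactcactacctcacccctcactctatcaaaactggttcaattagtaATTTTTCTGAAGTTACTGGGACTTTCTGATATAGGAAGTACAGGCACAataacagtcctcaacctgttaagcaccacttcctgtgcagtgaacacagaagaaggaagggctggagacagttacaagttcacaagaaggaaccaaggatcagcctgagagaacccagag
Ms4a6c, chr19:11469118-11469417, plus strand: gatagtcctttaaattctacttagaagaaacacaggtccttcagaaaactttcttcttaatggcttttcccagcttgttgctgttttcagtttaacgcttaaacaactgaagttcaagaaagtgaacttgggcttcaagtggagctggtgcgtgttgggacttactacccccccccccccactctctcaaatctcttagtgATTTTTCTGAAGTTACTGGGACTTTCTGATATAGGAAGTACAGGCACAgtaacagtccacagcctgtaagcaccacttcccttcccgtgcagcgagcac
The shared run was 48 bases long, while the longest run shared by any other of the 53 pairs of windows from different genes was 12 bases. A local alignment of both windows covered 234 columns, of which 82.5% held the same base. The start of the capitals lay 118 bases before the Ms4a6b start and 49 bases before the Ms4a6c start, so the same stretch is placed differently against the annotated starts. Whether the likeness of the windows has a part in the pattern across the arrays was not tested.

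The windows of Ly6c2 and Cd53 are shown because these genes had the largest differences of the set in opposite directions between Cav1-shRNA and cavtratin, and because they held the only matches to the letters GAGGAAG, a site of the kind bound by the myeloid factor PU.1. Capitals mark those letters on either strand.
Ly6c2, chr15:75111922-75112221, minus strand: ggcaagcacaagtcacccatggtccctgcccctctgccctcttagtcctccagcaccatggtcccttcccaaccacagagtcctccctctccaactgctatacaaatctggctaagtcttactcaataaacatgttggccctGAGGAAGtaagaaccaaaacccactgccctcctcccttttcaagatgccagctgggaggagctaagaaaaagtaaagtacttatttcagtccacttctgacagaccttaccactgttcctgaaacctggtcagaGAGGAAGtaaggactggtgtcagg
Cd53, chr3:106790100-106790399, minus strand: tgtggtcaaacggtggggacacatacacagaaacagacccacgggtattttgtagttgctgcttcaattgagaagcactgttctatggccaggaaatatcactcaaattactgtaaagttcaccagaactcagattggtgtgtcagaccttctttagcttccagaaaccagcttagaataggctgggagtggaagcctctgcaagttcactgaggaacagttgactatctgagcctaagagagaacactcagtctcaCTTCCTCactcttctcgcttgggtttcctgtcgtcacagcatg
One of the 2 Ly6c2 windows is printed, and in it the letters begin at −108 and at 27 on the strand of the gene, counted from 1 at the transcript start. In Cd53 they begin at 8, on the opposite strand. The letters occurred in 3 of the 11 windows, of 2 genes, against 13.6% of all 32851 windows of this length. The 2 Ly6c2 windows overlap and hold the same sites, so they are not separate matches. TTGCNNAA, the form of a C/EBP site, occurred in 1 of the 11 windows, that of Cd68, against 10.8% of all windows. TATAAA was in 0 of the 11, against 13.6% of all windows. The interferon-stimulated response element was in 0 of the 11, against 3.44% of all windows. The kappa B site was also in 0 of the 11, against 0.411% of all windows. Both strands were searched. A match describes letters only, and no match says only that the letters are not in these windows.

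The values are deposited log2 expression values per probe set, and a difference is 1 array's value minus another's. Levels of 6.50 and above were taken as reaching the expression floor, which is the median of the mean levels of all singly annotated probe sets. Cav1, the gene the hairpin is named for, was at 8.26 in all 3 arrays, so the array labelled Cav1-shRNA gave no sign of less Cav1 transcript, and every direction drawn from it carries this limit. The tissue label was borne out by photoreceptor genes, with the rod transducin gene Gnat1 at 13.19 in all 3 arrays. Equal values, to within 1e-09, were frequent. Of 11510 genes at or above the floor in at least 1 array, 43.2% had the same value in all 3, and cavtratin and AP control were equal in 54.4%.

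All 10 genes were higher in the array labelled Cav1-shRNA than in AP control, by 0.07 to 1.63 on the log2 scale. Over all 22180 genes, 4973 were higher there, 4098 lower and 13109 equal. In cavtratin 5 of the 10 were higher than in AP control, 3 were lower and 2 had exactly the same value. Over all genes, 3879 were higher in cavtratin, 4644 lower and 13657 equal. The 10 genes were chosen by these differences, so nothing is read from their directions. The genes fell into sets of 6 and 4 by whether Cav1-shRNA or cavtratin was the higher, a division made after the values were seen. Ly6c2, Ms4a7, Lyz2, Ms4a6c, Ms4a6b and Ms4a4c were highest in Cav1-shRNA, and Cd53, Cd68, Mpeg1 and Ms4a6d were highest in cavtratin. The median over the 10 genes was 7.93 in Cav1-shRNA, 7.20 in cavtratin and 6.75 in AP control. Of the 10 genes, 8 lay at or above the floor in Cav1-shRNA, 6 in cavtratin and 6 in AP control. Ms4a4c and Ms4a6b lay below it in every array.

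**Figure D1:**
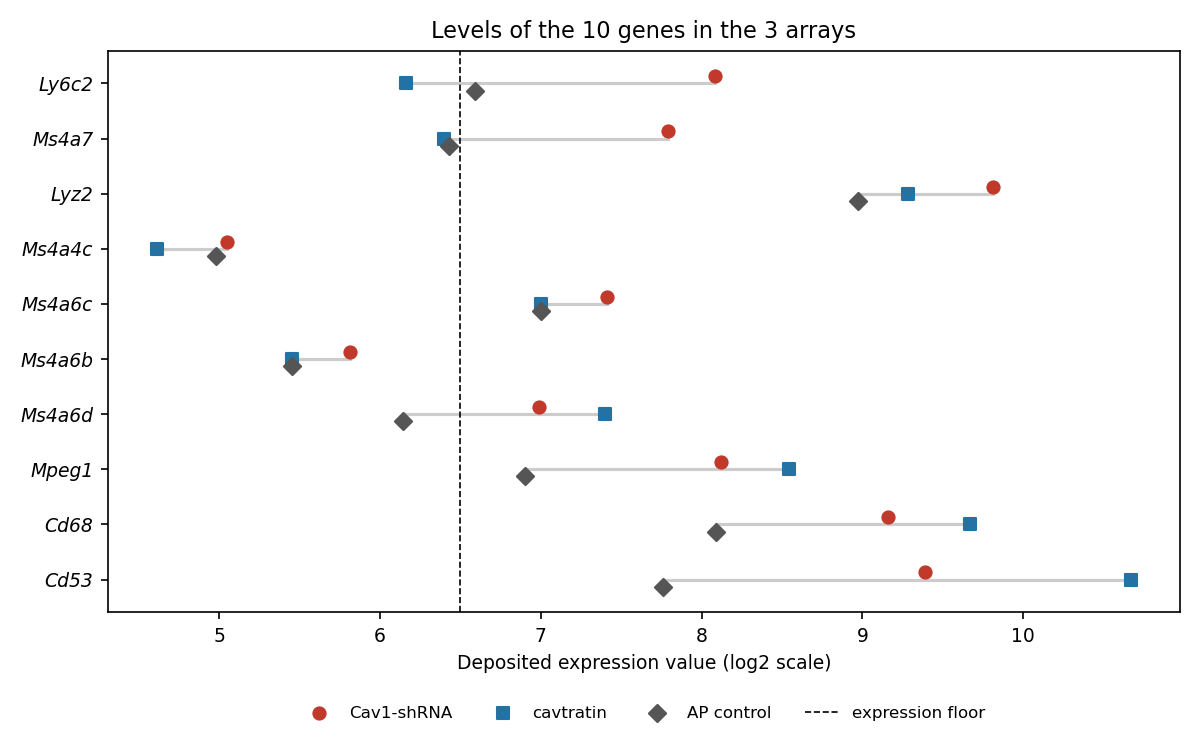
Deposited log2 expression value of each of the 10 genes (1 probe set each) in the arrays of Cav1-shRNA (circles), cavtratin (squares) and AP control (diamonds), 1 array per group, with the expression floor of 6.50 as a dashed line and the symbols offset vertically. Ly6c2 and Ms4a7, at the top, lie furthest right in Cav1-shRNA, and Cd53, at the bottom, lies furthest right in cavtratin.

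Ly6c2, the classical monocyte gene, had a level of 8.08 in Cav1-shRNA, 6.16 in cavtratin and 6.59 in AP control. It was thus high in 1 array, and in cavtratin it fell below the floor. The difference was 1.49 between Cav1-shRNA and AP control, or 2.80-fold, and −0.43 between cavtratin and AP control. Against cavtratin, Cav1-shRNA was higher by 1.92, or 3.79-fold, the largest positive difference among the 11472 genes at or above the floor in that comparison. Ly6c1, a near-identical neighbour that is known in mouse as a gene of vascular endothelium as well, lay far below the floor, at 4.30 in Cav1-shRNA, 3.72 in cavtratin and 4.02 in AP control. Its arrays were in the same order as those of Ly6c2, and whether probes of either gene also bind the other's transcript was not tested. Endothelial markers are given for that reason. Of 10 measured endothelial genes, 8 were higher in Cav1-shRNA than in AP control and 2 equal, with 0 at least 2-fold apart. The sum of their log2 values is given with the marker lists. Cldn5, the endothelial tight junction claudin, was at 7.15 in Cav1-shRNA, 6.77 in cavtratin and 6.94 in AP control. It was the 1 endothelial gene of the 10 that was lower in cavtratin than in AP control, while 6 were higher and 3 equal. Cdh5, VE-cadherin, was at 8.24 in Cav1-shRNA, 7.99 in cavtratin and 7.72 in AP control. The part of endothelium in the Ly6c2 values was not tested.

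Ms4a7, a macrophage gene of the Ms4a family but not the only one, was at 7.79 in Cav1-shRNA, 6.40 in cavtratin and 6.43 in AP control. It passed the floor in Cav1-shRNA alone, and the other arrays lay within 0.03 of each other just under it. Cav1-shRNA was higher than AP control by 1.36, or 2.57-fold, and higher than cavtratin by 1.39, or 2.62-fold. In the comparison with cavtratin, Ms4a7 ranked second from the top after Ly6c2. Only 4 genes in all were at least 2-fold higher in Cav1-shRNA than in cavtratin. The other members of that group of 4 were Ccl5, a chemokine that attracts T cells and monocytes, at 1.08, and Ecel1, an endopeptidase-like gene induced in injured neurons, at 1.06.

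Lyz2, the lysozyme gene, was at 9.81 in Cav1-shRNA, 9.28 in cavtratin and 8.97 in AP control. It had the highest level of the 10 genes in Cav1-shRNA and in AP control, although levels of different probe sets are not comparable as amounts of transcript. Cav1-shRNA lay 0.84 and cavtratin 0.32 above AP control, and the difference of 0.53 between Cav1-shRNA and cavtratin was the 16th from the top of 11472. Lyz1, its paralogue best known from Paneth cells of the gut, lay below the floor, at 5.87 in Cav1-shRNA, 5.68 in cavtratin and 5.71 in AP control.

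The other Ms4a genes with their highest value in Cav1-shRNA differed less. Ms4a6c, a gene of monocytes and macrophages, was at 7.41 in Cav1-shRNA and at 7.0 in both cavtratin and AP control. Ms4a6b was at 5.81 in Cav1-shRNA and at 5.45 in both other arrays. In both genes cavtratin and AP control had exactly the same value, and Cav1-shRNA lay 0.41 and 0.36 above them. Such a tie was frequent, at 54.4% of genes at or above the floor in at least 1 array. Whether probes of either gene also bind the other's transcript was not tested. Ms4a4c had the lowest level of the 10 genes, at 5.05 in Cav1-shRNA, 4.61 in cavtratin and 4.98 in AP control. Like Ly6c2 it was lowest in cavtratin, by 0.37 against AP control, though all of its values lie below the floor, where a fold can be too small.

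Cd53, the pan-leukocyte tetraspanin, had the largest range of the 10 genes. It was at 9.39 in Cav1-shRNA, 10.67 in cavtratin and 7.76 in AP control. Cav1-shRNA lay between the other arrays, 1.63 above AP control, or 3.10-fold, and 1.28 below cavtratin. Cavtratin was higher than AP control by 2.91, or 7.50-fold, the 17th largest positive difference of 11477 genes. In the comparison of Cav1-shRNA with AP control, Cd53 was the ninth from the top, counted from 1, and it stood above the other 9 genes in both comparisons with AP control.

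Cd68, the lysosomal macrophage glycoprotein, was at 9.16 in Cav1-shRNA, 9.67 in cavtratin and 8.09 in AP control. Mpeg1 was at 8.12 in Cav1-shRNA, 8.54 in cavtratin and 6.90 in AP control. Both were highest in cavtratin and lowest in AP control, with differences from AP control of 1.07 and 1.21 in Cav1-shRNA and of 1.58 and 1.64 in cavtratin. Ms4a6d, the 1 Ms4a gene of the 10 with this order, was at 6.99 in Cav1-shRNA, 7.40 in cavtratin and 6.14 in AP control. Its AP control value lay below the floor, so its differences of 0.85 in Cav1-shRNA and 1.26 in cavtratin can be too small. The differences between Cav1-shRNA and cavtratin were −0.51 for Cd68, −0.43 for Mpeg1 and −0.41 for Ms4a6d, each under 2-fold.

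**Figure D2:**
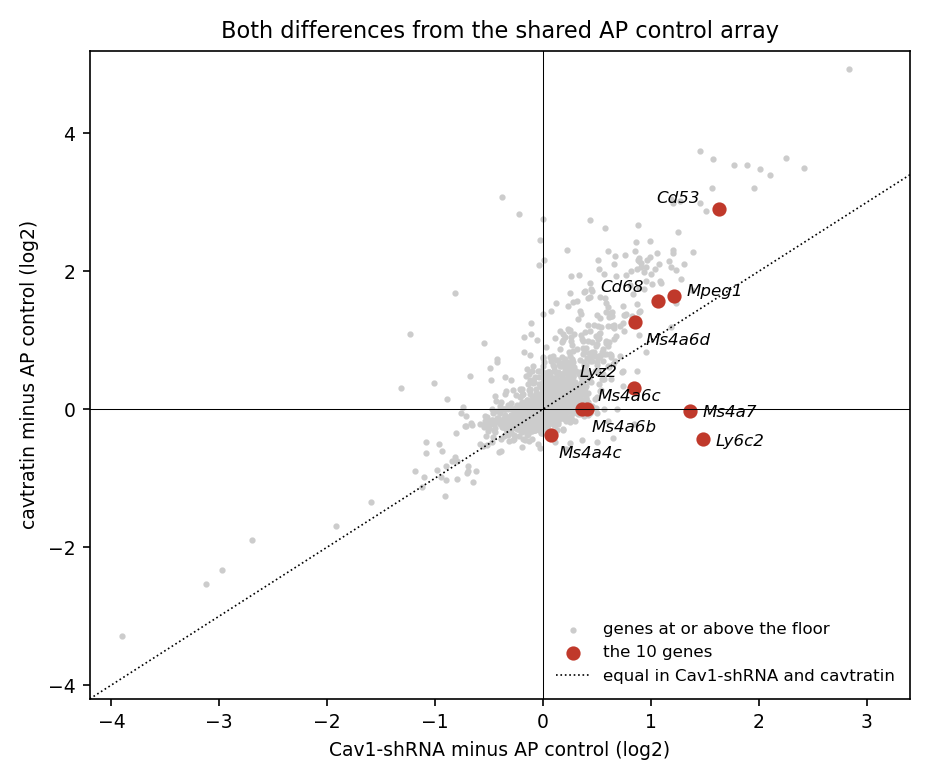
Difference from AP control for Cav1-shRNA (x axis, log2) and cavtratin (y axis, log2) for the 10 genes (red, named) and for genes at or above the floor in at least 1 array (grey). Both axes subtract the same AP control array, so a slope in the grey cloud is no result, and the dotted line marks equal values in Cav1-shRNA and cavtratin. Ly6c2 and Ms4a7 lie below the line, at 1.49 and 1.36 on the x axis and at −0.43 and −0.03 on the y axis.

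Differences of at least 1 in size, which is 2-fold, were counted where the higher array reached the floor. Between Cav1-shRNA and AP control this held for 5 of the 10 genes, Ly6c2, Ms4a7, Mpeg1, Cd68 and Cd53, all higher in Cav1-shRNA. Over all 11433 genes at or above the floor there, 0.464% were at least 2-fold apart in either direction, 0.341% higher and 0.122% lower. Between cavtratin and AP control it held for 4 genes, Ms4a6d, Mpeg1, Cd68 and Cd53, all higher in cavtratin, against 1.46% of 11477 genes in either direction, 1.36% higher and 0.0958% lower. Between Cav1-shRNA and cavtratin it held for Ly6c2 and Ms4a7, higher in Cav1-shRNA, and for Cd53, lower in Cav1-shRNA. The shares over 11472 genes were 0.819% in either direction, 0.0349% higher and 0.785% lower. With the floor at 8.20, the 75th percentile, Ly6c2, Ms4a7 and Mpeg1 lost their place in the count for Cav1-shRNA against AP control, Ms4a6d in that for cavtratin against AP control, and Ly6c2 and Ms4a7 in that for Cav1-shRNA against cavtratin. These contrasts chose the 10 genes, so nothing is read from the counts against those shares. The values nearest the threshold were 1.07 for Cd68 inside and 0.85 for Ms4a6d outside in Cav1-shRNA against AP control. They were 1.26 for Ms4a6d inside and −0.43 for Ly6c2 outside in cavtratin against AP control, and −1.28 for Cd53 inside and 0.53 for Lyz2 outside in Cav1-shRNA against cavtratin. The median difference over the 10 genes was 0.96 in Cav1-shRNA and 0.16 in cavtratin against AP control, and 0.39 between Cav1-shRNA and cavtratin, while the median over all genes was 0 in each comparison.

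Family name was used to choose the genes, besides their differences, and map position was not. Of the 10 genes, 6 lie in 1 stretch of chromosome 19. All of these but Mpeg1 are Ms4a genes, which form 1 cluster there, so their shared place follows from the choice by family name. In the RefSeq annotation of GRCm38.p6 the stretch from Ms4a8a to Mpeg1 holds 49 protein-coding genes, of which 46 were measured, the 6 members and 40 others. Between Ms4a7 and Ms4a6d lie 7 coding genes, while 31 separate Ms4a6d from Mpeg1, many of them olfactory receptors. Of the 40 others, only Mrpl16, Stx3, Patl1 and Osbp reached the floor, so the rest could not be counted as 2-fold apart. The count was 0 in each comparison. Over all genes at the floor, the shares were 0.464% for Cav1-shRNA against AP control, 1.46% for cavtratin against AP control and 0.819% for Cav1-shRNA against cavtratin. Differences of the 40 from AP control ran from −0.40 to 0.33 in Cav1-shRNA and from −0.27 to 1.0 in cavtratin. The upper end was Ms4a4a, between Ms4a7 and Ms4a4c, at 5.82 in Cav1-shRNA, 6.50 in cavtratin and 5.49 in AP control. Its cavtratin value missed the unrounded floor by less than 0.01, so a gene of this family with the order of Ms4a6d lay just outside the count. Stx3, a syntaxin of retinal ribbon synapses that lies in this stretch, was at 11.50 in all 3 arrays.

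**Figure D3:**
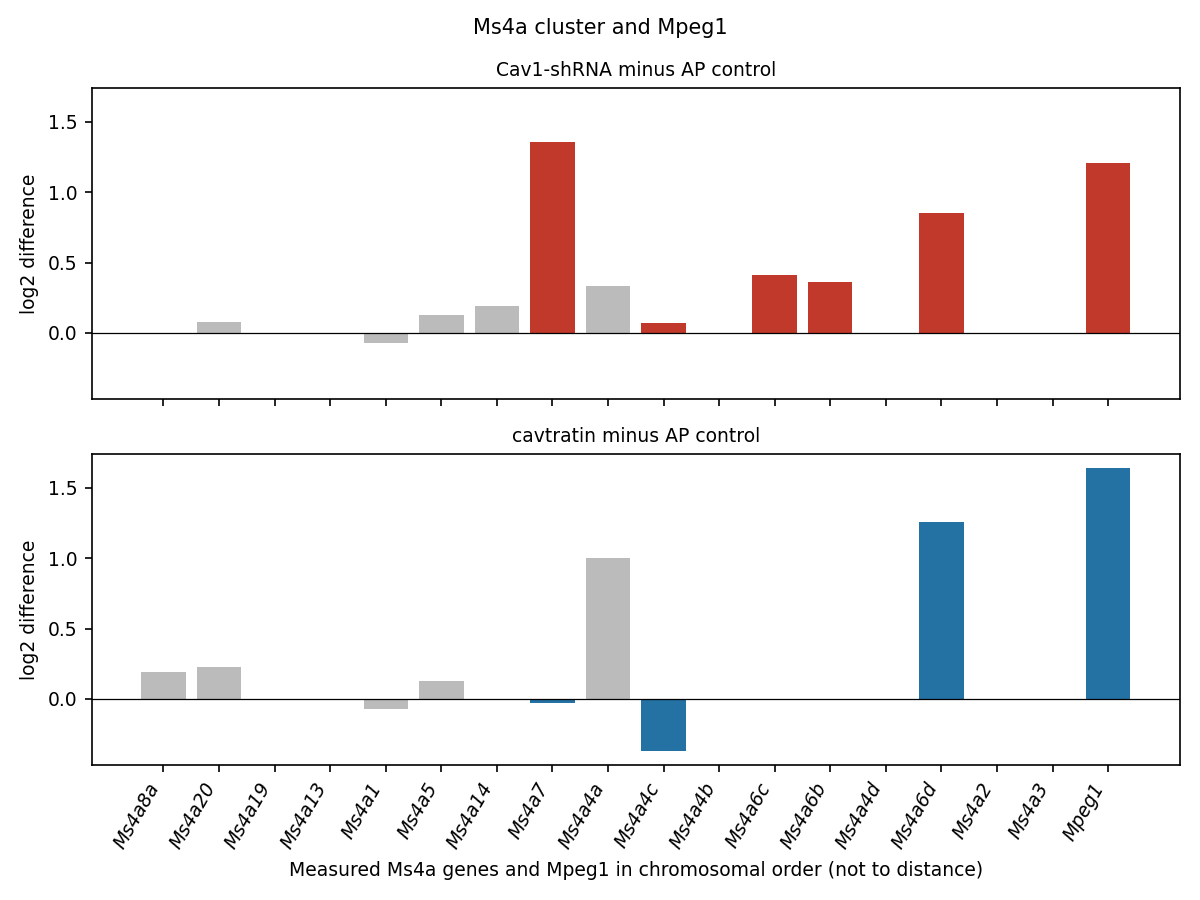
Differences from AP control (log2) in Cav1-shRNA (upper panel) and cavtratin (lower panel) for the measured Ms4a genes of the chromosome 19 cluster and Mpeg1, in chromosomal order but not to distance, with the members coloured and the others grey. Ms4a7 stands at 1.36 in Cav1-shRNA and −0.03 in cavtratin, while Ms4a6d and Mpeg1 are tall in both panels and taller in cavtratin.

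Within the Ms4a family and its relatives, 20 listed genes were measured, of which 15 were not among the 10. Of the 20, 10 were higher in Cav1-shRNA than in AP control, 2 lower and 8 equal, with a median of 0.04. Against AP control cavtratin had 6 higher, 3 lower and 11 equal, with a median of 0. Ms4a1, which encodes the B cell antigen CD20, was below the floor in every array, at 3.63 in Cav1-shRNA, 3.63 in cavtratin and 3.70 in AP control. Ms4a2, the beta chain of the mast cell IgE receptor, was at 4.49 in all 3 arrays, and Ms4a3, a gene of myeloid progenitors, at 5.15 in all 3. The distant relative Tmem176b was well above the floor, at 8.95 in all 3 arrays. Large differences in this family were thus those of Ms4a7, Ms4a6d and Ms4a4a.

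Relatives of Ly6c2 and Cd53 were listed by family. Of 11 measured Ly6 family genes other than Ly6c2, 0 were at least 2-fold apart in any comparison at or above the floor. Only Ly6e and Lynx1 of the 11 reached the floor, so the others could not be counted. Ly6i, below the floor, was at 5.89 in Cav1-shRNA, 5.44 in cavtratin and 4.80 in AP control. Its difference between Cav1-shRNA and AP control was 1.08, or 2.12-fold. Ly6e, expressed in many tissues, was at 8.99 in Cav1-shRNA, 8.75 in cavtratin and 8.87 in AP control, so its arrays had the order of those of Ly6c2 over a range of 0.24. Of 18 tetraspanin genes other than Cd53, 0 were at least 2-fold apart in any comparison. With Cd53 the list holds 19 genes, of which 13 or 14 reached the floor, depending on the comparison. The largest difference of the 18 between cavtratin and AP control, 0.66, was that of Cd63, a tetraspanin of lysosomes and exosomes. Cd63 was at 9.75 in Cav1-shRNA, 10.26 in cavtratin and 9.60 in AP control. Cd9, a broadly expressed tetraspanin, was at 8.64 in Cav1-shRNA, 8.97 in cavtratin and 8.45 in AP control. Both had the array order of Cd53.

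Cd68, Mpeg1 and Lyz2 belong to a list of 21 measured lysosomal and phagocytic genes, in which 19 were higher in Cav1-shRNA than in AP control and 0 lower, and 20 were higher in cavtratin and 1 lower. The other 18 genes of that list had medians of 0.25 in Cav1-shRNA and 0.26 in cavtratin against AP control. Of these, 0 and 1 were at least 2-fold higher, against 0.341% and 1.36% of all genes at the floor. That 1 gene was Ncf4, a subunit of the phagocyte NADPH oxidase, at 6.07 in Cav1-shRNA, 6.69 in cavtratin and 5.32 in AP control. Ctss, a cathepsin of antigen-presenting cells, was at 9.10 in Cav1-shRNA, 8.57 in cavtratin and 8.24 in AP control, with the order of Lyz2. Gpnmb, a glycoprotein of phagocytic macrophages and pigment cells, was at 9.46 in Cav1-shRNA, 9.28 in cavtratin and 8.73 in AP control. Ctsz was at 9.48 in Cav1-shRNA, 9.61 in cavtratin and 8.92 in AP control, with the order of Cd68.

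Other monocyte genes did not have the pattern of Ly6c2. Of 11 measured classical monocyte genes outside the 10, 4 were at least 2-fold higher in Cav1-shRNA than in AP control and 4 were in cavtratin. The shares higher over all genes at the floor were 0.341% and 1.36%. Between Cav1-shRNA and cavtratin 0 were higher and 3 lower, against 0.0349% and 0.785% of all genes at the floor. In the whole list of 14, 8 reached the floor in the first comparison and 9 in the others. The lists were chosen with earlier results known, so nothing is read from these counts. Medians of the 11 were 0.20 in Cav1-shRNA and 0.45 in cavtratin against AP control. Clec4e, a C-type lectin receptor, was at 8.77 in Cav1-shRNA, 10.54 in cavtratin and 7.0 in AP control. Hp, haptoglobin, was at 7.40 in Cav1-shRNA, 8.42 in cavtratin and 6.32 in AP control, and F13a1, a coagulation factor subunit, at 7.08, 7.82 and 5.99 in the same arrays. Thbs1, thrombospondin 1, was at 9.16 in Cav1-shRNA, 10.94 in cavtratin and 7.96 in AP control. All 4 were highest in cavtratin, as Cd53 was. Ccr2, the chemokine receptor by which classical monocytes leave the marrow, lay below the floor, at 6.10 in Cav1-shRNA, 6.10 in cavtratin and 5.90 in AP control. The remaining genes of the 11 differed little between Cav1-shRNA and AP control. Fn1 differed by 0.27, Gsr by 0.07, Plac8 and Ifitm6 by 0.0, Chil3 by −0.02 and Vcan by −0.09. Of 9 nonclassical monocyte genes, 7 reached the floor, and 0 were at least 2-fold apart in Cav1-shRNA and 1, Fcgr4, in cavtratin. The shares apart over all genes at the floor were 0.464% and 1.46%. Fcgr4, an activating receptor for IgG, was at 6.64 in Cav1-shRNA, 7.17 in cavtratin and 5.98 in AP control.

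Of 22 macrophage genes outside the 10, 1 was at least 2-fold higher in Cav1-shRNA than in AP control and 6 in cavtratin, with medians of 0.43 and 0.50. The shares higher over all genes at the floor were 0.341% and 1.36%. Of the whole list of 24, which holds Cd68 and Ms4a7, 16 and 15 reached the floor in these comparisons. In that list 7 were higher in Cav1-shRNA than in cavtratin, 13 lower and 4 equal, against 4953, 3736 and 13491 of all 22180 genes. Cd14, the co-receptor for bacterial lipopolysaccharide, was at 7.67 in Cav1-shRNA, 9.73 in cavtratin and 7.09 in AP control. Fcer1g, the signalling chain of Fc receptors, was at 9.90 in Cav1-shRNA, 10.67 in cavtratin and 8.81 in AP control. Cd84 was at 6.72, 7.72 and 5.91 in Cav1-shRNA, cavtratin and AP control. These 3 had the array order of Cd53. Other genes of the list were higher in Cav1-shRNA than in cavtratin. Adgre1, an adhesion receptor gene of mouse macrophages, was at 7.19 in Cav1-shRNA, 7.06 in cavtratin and 6.23 in AP control. Apoe, the lipid carrier apolipoprotein E, was at 7.41 in Cav1-shRNA, 7.05 in cavtratin and 7.20 in AP control, the order of Ly6c2 and Ms4a7. Clec12a, a myeloid inhibitory lectin receptor below the floor, followed that of Ms4a7 in being higher in Cav1-shRNA, at 6.17 in Cav1-shRNA, 5.59 in cavtratin and 5.57 in AP control, and was named after its values were seen. Genes of vessel-associated macrophages did not have that order. Mrc1 was at 4.81 in Cav1-shRNA, 4.97 in cavtratin and 4.81 in AP control, and Cd163 at 4.20 in all 3 arrays, both below the floor. Lyve1 was at 8.36 in Cav1-shRNA, 8.17 in cavtratin and 8.37 in AP control.

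Of 16 measured resident microglia genes, 0 were at least 2-fold apart between Cav1-shRNA and AP control and 1, Tyrobp, was at least 2-fold higher in cavtratin. The shares over all genes at the floor were 0.464% apart and 1.36% higher. In each comparison 10 of the 16 reached the floor. P2ry12 and P2ry13, purine receptor genes that mark resting microglia, had exactly equal values in all 3 arrays, at 6.87 and 6.51. Tmem119, another microglial marker, was below the floor at 5.89 in each array. In this list 10 genes were higher in Cav1-shRNA than in AP control, 0 lower and 6 equal, and in cavtratin 5 were higher, 1 lower and 10 equal. Equal values were the most frequent outcome over all 22180 genes, with 13109 and 13657 equal. Trem2, a lipid-sensing receptor of microglia and macrophages, was at 7.51 in Cav1-shRNA and at 6.95 in both cavtratin and AP control. Its arrays had the pattern of Ms4a6c. Tyrobp, the adaptor that Trem2 signals through, was at 8.75 in Cav1-shRNA, 9.36 in cavtratin and 7.98 in AP control, with the order of Cd53. C1qa and C1qb, complement genes of microglia and macrophages, were 0.45 and 0.42 higher in Cav1-shRNA than in AP control, against 0.04 and −0.09 in cavtratin.

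**Figure D4:**
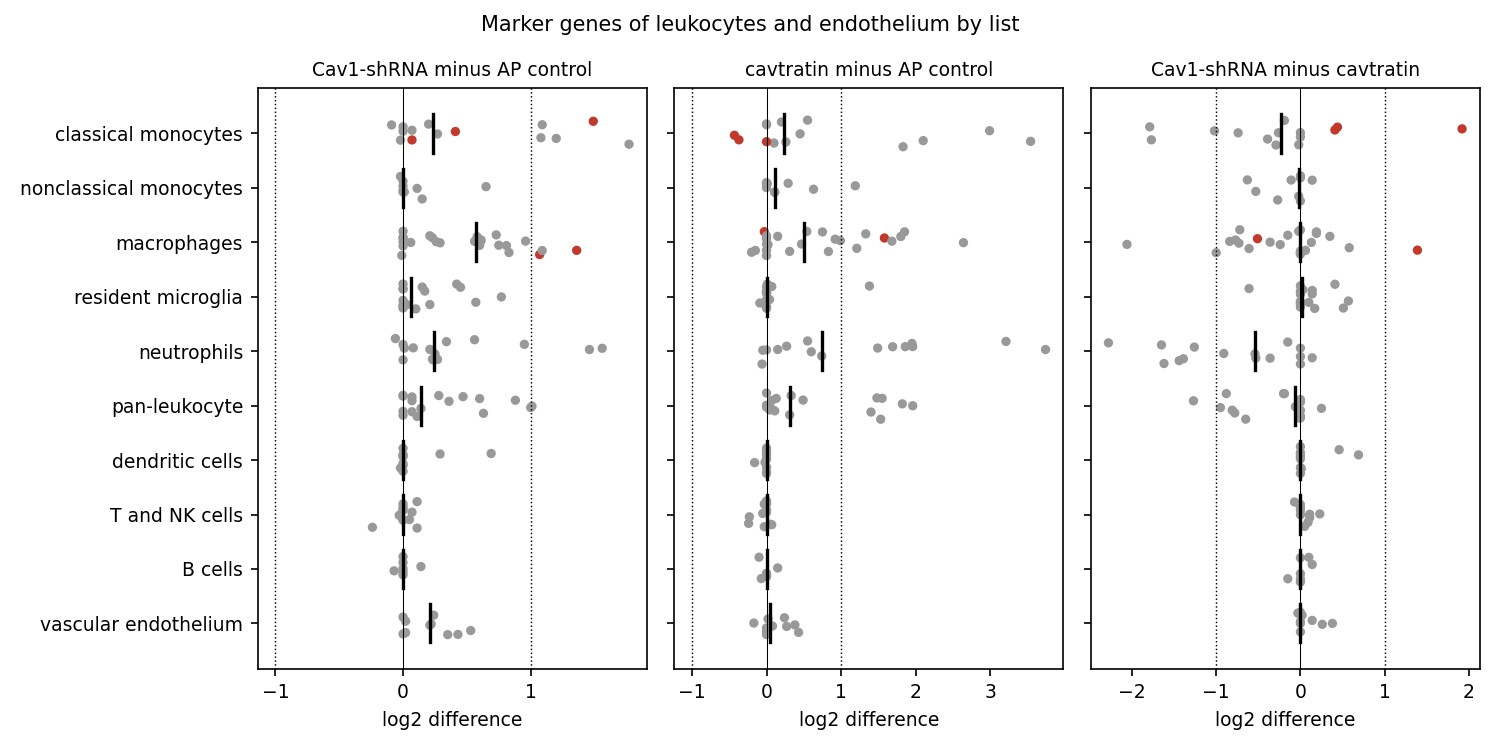
Log2 differences of marker genes in 10 fixed lists (rows) for Cav1-shRNA minus AP control, cavtratin minus AP control and Cav1-shRNA minus cavtratin (panels), 1 point per gene with members of the 10 in red, the black bar at the list median and dotted lines at a difference of 1 in size. Of 15 neutrophil genes, 12 lie right of 0 in cavtratin minus AP control, 2 left of it and 1 at 0, with a list median of 0.74. Of all 22180 genes, 3879 were higher in that comparison, 4644 lower and 13657 equal. The red points furthest right in the third panel are Ly6c2 at 1.92 and Ms4a7 at 1.39.

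Part of the neutrophil and pan-leukocyte lists was higher in cavtratin, where Cd53, Cd68, Mpeg1 and Ms4a6d were highest. Of 15 neutrophil genes, 1 was at least 2-fold higher in Cav1-shRNA than in AP control and 7 in cavtratin. Of the 15, 5 and 9 reached the floor in these comparisons, and the shares higher over all genes at the floor were 0.341% and 1.36%. The sum of the log2 values of the 15, genes below the floor included, was 92.3 in Cav1-shRNA, 104.3 in cavtratin and 86.2 in AP control. Such a sum is not a total amount of transcript. S100a8, a subunit of calprotectin, was at 7.44 in Cav1-shRNA, 9.72 in cavtratin and 5.98 in AP control. Ly6g, which defines mouse neutrophils, was below the floor in every array, at 4.94 in Cav1-shRNA, 5.47 in cavtratin and 4.92 in AP control. Of 17 pan-leukocyte genes, 2 were at least 2-fold higher in Cav1-shRNA and 6 in cavtratin, against the same shares, and 10 and 11 reached the floor. Their log2 values summed to 117.2 in Cav1-shRNA, 122.8 in cavtratin and 111.5 in AP control. Ptprc, which encodes CD45, was at 7.71 in Cav1-shRNA, 8.49 in cavtratin and 7.09 in AP control, in the order of Cd53. The part of neutrophils in the values of Cd53, Cd68, Mpeg1 and Ms4a6d was not tested.

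Lymphocyte genes gave no such differences. The 12 T and NK cell genes and the 7 B cell genes were all below the floor in every array, so they could not be counted. Their differences from AP control lay between −0.24 and 0.15. Among 10 dendritic cell genes, 5 reached the floor and 0 were at least 2-fold apart. Flt3, Zbtb46 and Xcr1, all below the floor, were equal in all 3 arrays. The class II gene H2-Aa was at 7.74 in Cav1-shRNA and at 7.05 in both cavtratin and AP control. The log2 values of the endothelial genes summed to 74.4 in Cav1-shRNA, 73.7 in cavtratin and 72.4 in AP control, which is not a total amount of transcript. Of 16 lens genes, which a retina sample can carry over, 5 in cavtratin were at least 2-fold higher than in AP control, against 0 in Cav1-shRNA. The shares higher over all genes at the floor were 1.36% and 0.341%, and 10 and 7 of the 16 reached the floor. The 5 genes higher in cavtratin were the crystallin genes Cryaa, Cryba1, Cryba2, Cryba4 and Crygs. The lens genes of the list that are not crystallins differed by 0.52 for Bfsp1, 0.11 for Bfsp2, 0.0 for Lim2 and −0.06 for Mip in cavtratin against AP control. Whether lens tissue was carried over was not tested. Retinal neuron, Muller glia and pigment epithelium genes had 0 members at least 2-fold apart in any comparison.

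Myeloid transcription factors and the signals for monocytes were also listed. Of 13 transcription factor genes, 9 reached the floor in each comparison and 0 were at least 2-fold apart in any. Spi1, which encodes PU.1, was at 6.95 in Cav1-shRNA, 7.13 in cavtratin and 6.56 in AP control, and Cebpb at 6.81, 7.38 and 6.67 in the same arrays. Of 18 growth factor and recruitment genes, 0 were at least 2-fold higher in any comparison. Of these, 2, Ccl2 and Ccl7, were at least 2-fold lower both in Cav1-shRNA and in cavtratin than in AP control. The shares lower over all genes at the floor were 0.122% and 0.0958%, and 11 of the 18 reached the floor in each. Ccl2, the main attractant of Ccr2-bearing monocytes, was at 7.46 in Cav1-shRNA, 8.04 in cavtratin and 10.58 in AP control. Ccl7, another Ccr2 ligand, was at 6.57 in Cav1-shRNA, 7.38 in cavtratin and 9.27 in AP control. Both were thus highest in AP control, where Ly6c2 was at 6.59. Csf1r, the receptor for the macrophage growth factor, was at 7.80 in Cav1-shRNA, 7.81 in cavtratin and 7.50 in AP control.

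Likeness of pattern was measured as the Euclidean distance between pairs of differences, Cav1-shRNA minus AP control and cavtratin minus AP control, over 10798 named genes outside the 10. Since both differences use the AP control array, likeness over these 3 arrays is a description only. Nearest to the median pair of the 10 genes, 0.96 and 0.16, were Ctss at a distance of 0.200, the muscle LIM protein gene Pdlim3 at 0.284, H2-Aa at 0.314, Ecel1 at 0.393 and the growth factor binding protein gene Igfbp3 at 0.404. Nearest to Ly6c2 were Ecel1 at 0.683, Ccl5 at 0.833, H2-Aa at 0.907, the class II gene H2-Eb1 at 0.921 and Ctss at 0.987. The nearest gene lay more than 3 times as far from Ly6c2 as Ctss did from the median pair. Ly6c2 was chosen by these differences, and the rest of the 10 genes were not among the candidates. Nothing is therefore read from this ratio. Ccl5 was at 9.15 in Cav1-shRNA, 8.07 in cavtratin and 8.49 in AP control, and Ecel1 at 8.46, 7.41 and 7.62. Like Ly6c2, both were highest in Cav1-shRNA and lowest in cavtratin.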

How the data were processed

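Gene expression in pooled mouse retinae was measured on 3 arrays, 1 per group, with RNA labelled by a GeneChip whole-transcript kit per the labels' protocols. The deposited probe set values were taken to be log2, inferred from their range of 1.88 to 13.42, and used as the authors gave them. Their log base, summarisation, normalization and genome build are unstated in the labels. GEO's annotation of the platform, possibly dated, gave 1 symbol to 23521 of 41345 probe sets and several to 1814, and 16010 were not listed. The probe set with the highest mean was kept per gene, leaving 22180 genes. Differences were computed with Python 3.11.15 and pandas 2.3.3. With 1 array per group there are no replicates, tests, SDs or p-values, and 1 array sets the precision of each value. Counting was tested on simulated data.

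The 10 genes, the 21 other gene lists and the motifs were chosen with earlier results of these data known. Named were the 10 genes, up to 4 of a described list with the largest differences that reached the floor, and the 5 genes nearest in pattern. Any other gene named, defining markers below the floor and paralogues included, was chosen after its values were seen. Alternatives were centring, quantile normalization, the mean of all probe sets, other floors and thresholds of 1.5-fold and 3-fold. A comparison of member proteins was planned and not made, since no protein sequences were used here.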

Additional observations from a re-analysis of the deposited data

Results flagged for a closer look

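Ly6c2, Ms4a7 and Ms4a4c lay on opposite sides of AP control in the array labelled Cav1-shRNA and in cavtratin. For Ly6c2 the difference from AP control was 1.49 in Cav1-shRNA and −0.43 in cavtratin. For Ms4a7 it was 1.36 in Cav1-shRNA and −0.03 in cavtratin, the second of these smaller than 0.120, the spread of this difference between probe sets of the same gene over 271 genes. For Ms4a4c, below the floor in every array, it was 0.07 in Cav1-shRNA and −0.37 in cavtratin, the first of these smaller than the matching spread of 0.088. With 1 array per group the opposite directions were not tested, and agent and time cannot be told apart.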

How the results depend on the processing

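No paired analysis was possible because each group has 1 array. Under centring and quantile normalization, each of the 30 differences of the 10 genes moved by no more than the spread between probe sets of the same gene. Centring shifts all genes of a comparison by the same amount. The mean of all probe sets could not move these differences, since each of the 10 genes had 1 probe set. Ms4a6c, equal in cavtratin and AP control as deposited, ran from −0.01 to 0.01. With the floor at the 75th percentile, 8.20, the genes at least 2-fold apart numbered 2 between Cav1-shRNA and AP control, Cd68 and Cd53, against 0.363% of all genes at that floor, and 1 between Cav1-shRNA and cavtratin, Cd53, against 0.961%. Ly6c2, Ms4a7 and Mpeg1 lie below that floor in Cav1-shRNA, which ends their call against AP control, and Ms4a6d lies below it in cavtratin, which leaves 3 genes there. With a 3-fold threshold the numbers were 1 between Cav1-shRNA and AP control, Cd53, against 0.131% of all genes, then 2 between cavtratin and AP control, Mpeg1 and Cd53, against 0.793%, and 1 between Cav1-shRNA and cavtratin, Ly6c2, against 0.235%. The other 28 counts and medians stayed within 1.5 times or within that spread, those under the mean of all probe sets by construction. Each gene had 1 probe set, so no second probe set checks it, and values near or below the floor can understate a fold.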
